A study of Mus musculus with 9 samples.

Results

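The retinoic acid group described here held 9 genes chosen by name, the synthesizing enzymes Aldh1a1, Aldh1a2 and Aldh1a3, the degrading enzyme Cyp26a1, the binding proteins Crabp1 and Crabp2, and the receptors Rara, Rarb and Rarg. The array annotation paired 12 probe sets with one of these symbols alone, of 45037 probe sets and 18193 genes measured in all. RNA came from E14 mouse embryonic stem cells (ESCs), on 4 Affymetrix arrays numbered 2, 6, 8 and 10, and from embryoid bodies, aggregates in which such cells differentiate, on 5 arrays numbered 1, 3, 5, 7 and 9. E14 is the line that the study names for its ESCs. The sample titles give only the cell type and a number, with no line, genotype or treatment for either group. The study's methods call the ESC arrays biological replicates. The age of the embryoid bodies and the number of separate cultures behind them are not given in the sources used here, so the spread among the embryoid body arrays, which enters every P value, may be technical. Values are GCRMA intensities, a summary of the brightness of the probes in a probe set after background correction, and are given as log2. A value under log2 4 is called near the floor, where 49.1 to 49.9% of an array's probe sets were found. Levels of different probe sets are not compared as amounts of RNA, because probes differ in how well they bind. Sums of marker levels, given below, mostly follow their brightest probe sets.

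Retinoic acid is a small signalling molecule made from vitamin A. Retinol is first oxidized to retinaldehyde by dehydrogenases such as Rdh10 and then to retinoic acid by the Aldh1a enzymes. Crabp proteins carry it within the cell, Cyp26 enzymes break it down, and in the nucleus it binds Rar receptors, which sit on DNA as pairs with Rxr receptors. The preferred sites are direct repeats of a short hexamer, and Rarb and Cyp26a1 are textbook genes with such a repeat beside their start. In ESCs retinoic acid is widely used to drive differentiation, and in the embryo it patterns the hindbrain, heart and body axis.

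Such repeats were looked for in the RefSeq promoter windows of mouse build GRCm38.p6, each with 250 bases before and 50 bases after a gene start, on both strands. A repeat was any pair of hexamers in the same direction with 5 bases between. The first hexamer searched was AGGTCA, the second was AGTTCA, the third was GGGTCA, and the last was GGTTCA. Of 32851 windows, 32 held one (0.0974%). Of the 12 windows of the group, which covered 7 of the 9 genes (Aldh1a3 and Crabp2 had none), 2 held one, those of Rarb and Cyp26a1. The 100 bases just before both starts are shown because these are also the genes that were near the floor on some or all ESC arrays and rose in embryoid bodies. Capitals mark the 2 hexamers of the repeat, and a single hexamer outside it, GGGTCA in the Rarb stretch, is left in lower case.
Rarb, chr14:16575477-16575576, minus strand: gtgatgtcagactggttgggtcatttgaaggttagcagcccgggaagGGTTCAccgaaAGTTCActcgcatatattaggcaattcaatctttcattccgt
Cyp26a1, chr19:37697708-37697807, plus strand: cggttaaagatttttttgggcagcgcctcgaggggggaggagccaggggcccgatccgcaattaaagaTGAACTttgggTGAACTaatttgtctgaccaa

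The Rarb repeat spans bases -53 to -37 from the start and reads in the direction of the gene. The Cyp26a1 repeat spans bases -32 to -16 and reads on the opposite strand, where it is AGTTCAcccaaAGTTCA. Read in that direction, the Cyp26a1 repeat shares 15 of 17 bases with that of Rarb, and the differences from Rarb to Cyp26a1 are G1A and G9C, counted from 1 at the 5′ end of the repeat. A single hexamer is common, in 43.7% of all windows and in 6 of the 12 of the group. No window of the group held a repeat with 1 or 2 bases between the hexamers, spacings found in 0.222% and 0.268% of all windows. A match is a description of the letters only, and binding was not measured.

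The labelled cell types were checked against marker genes. Of 10 ESC markers, 9 were lower in embryoid bodies, and Esrrb was not called by its highest probe set, although 2 of its 3 probe sets were lower. Of 14 germ layer markers measured, 10 were higher and Pax6 was lower. The arrays also fell into smaller sets within each group. Embryoid body arrays 7 and 9 differed from arrays 1, 3 and 5 by log2 1 or more at 0.457 to 0.653% of probe sets, against 0.0844 to 0.131% among arrays 1, 3 and 5 and 0.120% between 7 and 9. For ESC arrays 8 and 10 against 2 and 6 this was 0.966 to 1.19%, against 0.353% and 0.331% within each pair. Both groups thus split between the arrays numbered up to 6 and those numbered 7 to 10. What the sets stand for is not given in the sources used here. With the 2 sets as a block in the fit, an alternative chosen after seeing the data, the same 4 probe sets of the group were called higher and the same 2 lower.

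Embryoid bodies differed from ESCs at 5 of the 9 genes. Cyp26a1, Crabp1, Crabp2 and Rarb rose and Rarg fell, while the 3 Aldh1a genes and Rara were not called. Among the 12 probe sets, 4 were higher in embryoid bodies and 2 lower at an adjusted P under 0.05 by limma, a linear model fitted across all probe sets with Benjamini-Hochberg adjustment. Over all probe sets 10.5% were called higher and 10.6% lower, and the count of lower ones rose from 4778 to 12735 without embryoid body array 9. The same 4 probe sets had every embryoid body array above every ESC array (10.4% of all probe sets), and the same 2 had every one below (15.8%). The median difference over the 9 genes, each by its highest probe set, was 0.37 on the log2 scale, against -0.04 over all genes. In tissue-like aggregates fewer cells that express a gene and less RNA per cell cannot be told apart.

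**Figure D1:**
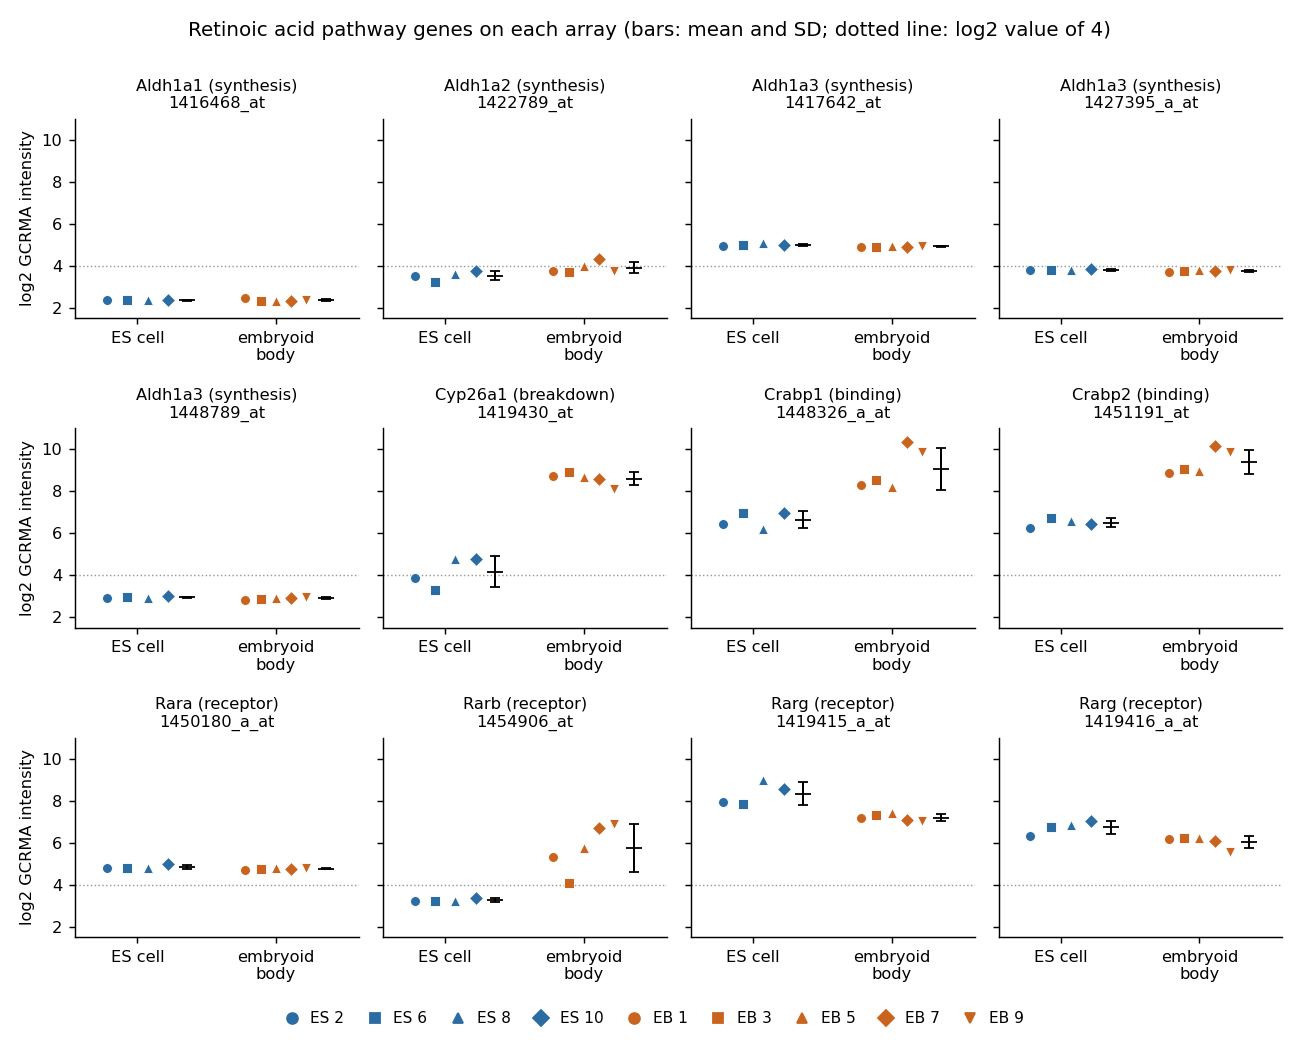
Log2 GCRMA intensity (vertical axis) of the 12 probe sets on each of 4 ESC arrays (blue) and 5 embryoid body arrays (orange), with the mean and SD in black and a dotted line at log2 4. Cyp26a1, Crabp1, Crabp2 and Rarb lie higher on every embryoid body array than on any ESC array, both Rarg probe sets lie lower, and Crabp1, Crabp2 and Rarb are highest on embryoid body arrays 7 and 9.

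The probe sets of the enzymes that make retinoic acid read between log2 2.32 and 5.07 on all arrays. Aldh1a2, the main source of retinoic acid in the early embryo, read log2 3.50, 3.23, 3.63 and 3.76 on ESC arrays 2, 6, 8 and 10, and 3.73, 3.70, 4.01, 4.31 and 3.73 on embryoid body arrays 1, 3, 5, 7 and 9. The groups overlapped, and 7 of the 9 values were near the floor. The difference in log2 was 0.37 (95% interval 0.03 to 0.70, adjusted P = 0.0864 by limma), so a rise of up to 1.63-fold is within the interval. With array weights in the fit this gene was called, at 0.49 (adjusted P = 0.0306).

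Aldh1a1 stayed between log2 2.32 and 2.45 on all 9 arrays, with a difference of 0.0029 (-0.05 to 0.06). Aldh1a3 was measured by 3 probe sets, at 4.89 to 5.07, 3.68 to 3.84 and 2.83 to 2.99, with differences of -0.07, -0.04 and -0.06. The 95% intervals of these 4 probe sets all lay between -0.16 and 0.06. None was called, and for the highest of the Aldh1a3 probe sets only quantile normalization gave a call, at -0.11 (adjusted P = 0.0343). All but the highest Aldh1a3 probe set were near the floor, which limits what the arrays could show of these enzymes. The highest one barely varied and read the same value on ESC array 2 and embryoid body array 9. Whether it measured signal above its own background is not known.

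Cyp26a1, the enzyme that oxidizes retinoic acid for disposal, rose most of the group. It read log2 3.87, 3.27, 4.75 and 4.78 on ESC arrays 2, 6, 8 and 10, and 8.71, 8.92, 8.69, 8.58 and 8.10 on embryoid body arrays 1, 3, 5, 7 and 9. The lowest embryoid body array was thus far above the highest ESC array. Its mean was 4.17 ± 0.73 (SD, n = 4) in ESCs and 8.60 ± 0.31 (n = 5) in embryoid bodies, a difference of 4.43 (SE 0.32) or 21.6-fold (95% interval 13.1 to 35.6, adjusted P = 1.01e-05 by limma). By size of rise it ranked 84 among the 45037 probe sets. Since 2 of its 4 ESC values were near the floor, the size of the fold is less sure than its direction. In ESCs it was higher on arrays 8 and 10, and without them the difference was 5.03 (adjusted P = 1.5e-05).

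On the same ESC arrays 8 and 10 the summed level of 8 fibroblast markers was log2 12.80 and 12.67, against 11.02 and 10.73 on arrays 2 and 6. Acta2 led this sum, at 12.64 and 12.49 on arrays 8 and 10, against 10.81 and 10.49. Col3a1, a fibrillar collagen, read 6.28 and 5.51 on arrays 8 and 10, against 3.12 and 3.65. Col1a1 and Pdgfrb were higher on arrays 8 and 10 too. Col1a2 differed little, at 6.92 and 7.06 against 6.85 and 6.66. Thy1, S100a4 and Postn of that list were near the floor on all 4 ESC arrays. The summed ESC markers were between 15.22 and 15.34 on all 4 arrays, but single genes of that list went different ways. Klf4 read 10.32 and 10.08 on arrays 8 and 10, against 9.24 and 9.06. Zfp42 read 11.85 and 11.77, against 11.34 and 11.31, and Nanog was higher there too. Utf1 was lower there, at 10.44 and 10.27 against 10.92 and 10.73, as were Pou5f1 and Dppa5a. The rest of that list did not separate the arrays. In embryoid bodies the summed fibroblast markers were 14.58 to 14.76, with 6 of the 8 called higher, and Thy1 and S100a4 stayed near the floor. The part of fibroblast-like cells in the levels of the group was not tested.

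Both cellular binding proteins rose, and both were highest on embryoid body arrays 7 and 9. Crabp2, which hands retinoic acid to the receptors, read 6.26, 6.74, 6.58 and 6.42 on ESC arrays 2, 6, 8 and 10, and 8.86, 9.06, 8.98, 10.17 and 9.84 on embryoid body arrays 1, 3, 5, 7 and 9. The groups lay over 2 log2 units apart at their nearest values. The mean went from 6.50 ± 0.21 (n = 4) to 9.38 ± 0.58 (n = 5), a rise of 2.88 (SE 0.28) or 7.37-fold (4.78 to 11.4, adjusted P = 6e-05 by limma). Without embryoid body arrays 7 and 9 the rise was 2.47 (adjusted P = 2.74e-05).

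Crabp1, which binds retinoic acid in the cytosol, read 6.42, 6.96, 6.18 and 6.97 on ESC arrays 2, 6, 8 and 10, and 8.31, 8.53, 8.20, 10.34 and 9.87 on embryoid body arrays 1, 3, 5, 7 and 9. Arrays 7 and 9 stood more than 1 log2 unit above the other 3 embryoid body arrays, and these in turn stood more than 1 above the ESC arrays. The mean went from 6.64 ± 0.40 to 9.05 ± 0.98, a rise of 2.41 (SE 0.47) or 5.33-fold (2.55 to 11.1, adjusted P = 0.00471 by limma). Without arrays 7 and 9 the rise was smaller, at 1.71, but still called (adjusted P = 0.0017).

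The 3 receptors of retinoic acid went different ways. Rarb, itself induced by retinoic acid in many cells, was near the floor on every ESC array, at 3.21, 3.23, 3.20 and 3.38. On embryoid body arrays 1, 3, 5, 7 and 9 it read 5.32, 4.07, 5.76, 6.67 and 6.86, the widest spread of the 12 probe sets, at 2.79 between the lowest and the highest array. Array 3 was barely above the floor and arrays 7 and 9 were again highest. The rise was 2.48 (SE 0.51) or 5.59-fold (2.52 to 12.4, adjusted P = 0.00632 by limma), a size that depends on the floor of the ESC values. Without arrays 7 and 9 it was 1.80 (adjusted P = 0.0146), and without ESC arrays 8 and 10 it was 2.52, just inside the threshold (adjusted P = 0.0486).

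Rarg, a receptor already above the floor on every ESC array, fell. Its first probe set read 7.93, 7.85, 8.98 and 8.57 on ESC arrays 2, 6, 8 and 10, and 7.15, 7.31, 7.41, 7.05 and 7.003 on embryoid body arrays 1, 3, 5, 7 and 9. The groups did not overlap, but ESC arrays 8 and 10 stood above 2 and 6. The mean went from 8.33 ± 0.54 to 7.18 ± 0.17, so ESCs were 2.21-fold higher (1.55 to 3.16, adjusted P = 0.00531 by limma). Without ESC arrays 8 and 10 the log2 difference shrank from -1.15 to -0.70 and kept its call (adjusted P = 0.00513).

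The second Rarg probe set moved the same way by less. It read 6.30, 6.73, 6.86 and 7.03 on the ESC arrays and 6.17, 6.21, 6.22, 6.05 and 5.55 on the embryoid body arrays, in the same order as above. ESC array 2 was within 0.1 of the nearest embryoid body array. Its difference was -0.69 (SE 0.18, adjusted P = 0.0219 by limma), and the call was lost without ESC array 6, 8 or 10 (adjusted P = 0.0516, 0.0595 and 0.0634), without embryoid body arrays 7 and 9 (0.0691) and without ESC arrays 8 and 10 (0.189).

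Rara, the receptor that most cell types carry, was not called. Its single probe set read 4.79, 4.79, 4.78 and 4.98 on the ESC arrays and 4.71, 4.76, 4.77, 4.76 and 4.78 on the embryoid body arrays. The groups differed by -0.08 on the log2 scale (-0.18 to 0.03, adjusted P = 0.204 by limma). These values lie little above the floor, so a change at a level under what the probe set detects would not show.

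**Figure D2:**
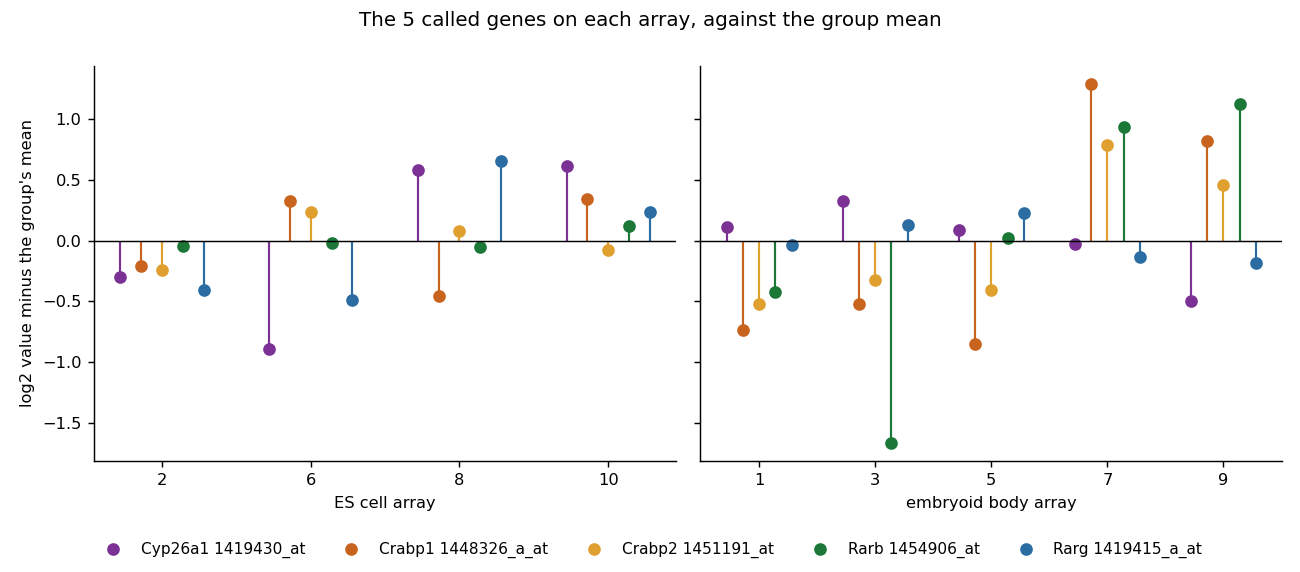
Log2 value minus the mean of the own group (vertical axis) for the 5 called genes, each by its highest probe set, on every ESC array (left) and embryoid body array (right). Crabp1, Crabp2 and Rarb lie above the group mean on embryoid body arrays 7 and 9 while Cyp26a1 and Rarg lie below it, and Cyp26a1 and Rarg lie above it on ESC arrays 8 and 10.

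Within the embryoid bodies, arrays 7 and 9 thus combined the highest Crabp1, Crabp2 and Rarb values with the lowest Cyp26a1 and Rarg values of their group. On these arrays the summed ESC markers were log2 12.22 and 11.91, against 12.54 to 12.85 on arrays 1, 3 and 5. Summed germ layer markers were 12.63 and 12.61, against 13.34 to 13.37. The gap in this sum came from the globin gene Hbb-bh1. Without it the sums were 12.32 and 12.25, against 12.18 to 12.37, and were led by Tnnt2. Taken singly, Mixl1, Eomes, Foxa2, Sox17 and Hand1 were also lower on arrays 7 and 9 than on arrays 1, 3 and 5. Gata4, Pax6, Sox1 and Tnnt2 were higher there, and the rest of the list did not separate the arrays. Visceral endoderm markers did not separate the arrays, at 7.34 and 7.06 against 7.26 to 7.71, and 4 of the 6 were near the floor on all 9 arrays. The part of cell composition in the spread of these genes was not tested.

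The size of each difference thus depended on the set of arrays in which it was taken. Within arrays up to 6 the difference in log2 was 5.20 for Cyp26a1, 1.66 for Crabp1, 2.47 for Crabp2, 1.83 for Rarb and -0.60 for the first Rarg probe set. Within arrays 7 to 10 it was 3.57 for Cyp26a1, 3.52 for Crabp1, 3.50 for Crabp2, 3.48 for Rarb and -1.75 for Rarg. All 5 genes kept their direction in both sets, with Cyp26a1 differing more in the first and the others more in the second. The ESC values of Cyp26a1 in the first set, 3.87 and 3.27, were near the floor, against 4.75 and 4.78 in the second. Whether the sets differ in these sizes was not tested.

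Other genes of the pathway were taken from 4 lists of 55 genes, of which 49 had a probe set and are given by the highest one. In embryoid bodies 16 were higher and 4 lower, with a median difference of -0.01, against 15.7% higher and 14.7% lower among all genes. The retinol transport and oxidation list held 15 measured genes, of which 3 rose, 1 fell and 11 were not called. Rdh10, the dehydrogenase that makes retinaldehyde, read 7.67, 7.31, 7.72 and 7.47 on the ESC arrays and 8.68, 8.41, 8.41, 9.06 and 9.12 on the embryoid body arrays. It rose by 1.19 (SE 0.18, adjusted P = 0.000852 by limma) and both of its probe sets were called higher. Rbp4, the retinol carrier of blood, rose by 1.90 (SE 0.49, adjusted P = 0.0228), but its groups overlapped. Rbp4 lost its call without ESC array 2 or 10 or embryoid body array 1 or 3, and also without ESC arrays 8 and 10 together (adjusted P = 0.135). On embryoid body arrays 7 and 9 it read 4.75 and 4.98, against 5.68 to 6.66 on the other 3, and without those 2 arrays the rise was 2.47 (adjusted P = 0.00917).

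Of the 5 measured genes for other breakdown and binding proteins, 1 rose and 4 were not called. Among 12 measured Rxr receptors and cofactors, 5 rose and 2 fell. Rxra, a partner of the Rar receptors, went from 6.37 ± 0.32 to 7.66 ± 0.09, a rise of 1.29 (SE 0.14, adjusted P = 0.000112 by limma), though only 1 of its 3 probe sets was called. Nrip1, a corepressor that binds hormone-bound receptors, went from 6.81 ± 0.25 to 8.91 ± 0.32, with 3 of 6 probe sets called higher. Ncoa2, a coactivator, rose by 1.35 (SE 0.12), on 1 of 4 probe sets. None of the genes of these lists that fell did so by 1 or more on the log2 scale.

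Of 17 measured genes known to respond to retinoic acid, 7 rose, 1 fell and 9 were not called, with a median difference of 0.18. Among all genes 15.7% were called higher and 14.7% lower, and the median was -0.04. By the highest probe set the homeobox gene Meis2 rose most, from 4.41 ± 0.23 to 10.87 ± 0.47, with all 4 of its probe sets called. Meis1, its relative, rose by 3.77 (SE 0.30) with 2 of 3 probe sets called, and the nuclear receptor Nr2f1 by 4.36 (SE 0.39). Across the alternatives, which include probe set choice, the smallest rise was 1.97 for Meis2 and 0.92 for Meis1. With 1 array left out the smallest were 6.33 and 3.61. The size of these 2 rises is thus less sure than their direction. The pioneer factor Foxa1 rose by 4.56 (SE 0.28), Rai1 by 1.84 (SE 0.16) on 1 of 2 probe sets, Nr2f2 by 1.25 (SE 0.28) on 3 of 6 and the transglutaminase Tgm2 by 1.02 (SE 0.13) on 3 of 6. These genes answer to other signals too, so their rise does not measure retinoic acid. The Hox genes of the list, Hoxb1, Hoxa4 and Hoxb4, were not called and had mean values under log2 4 in both groups, and Cdx1 and Stra8 were likewise near the floor.

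**Figure D3:**
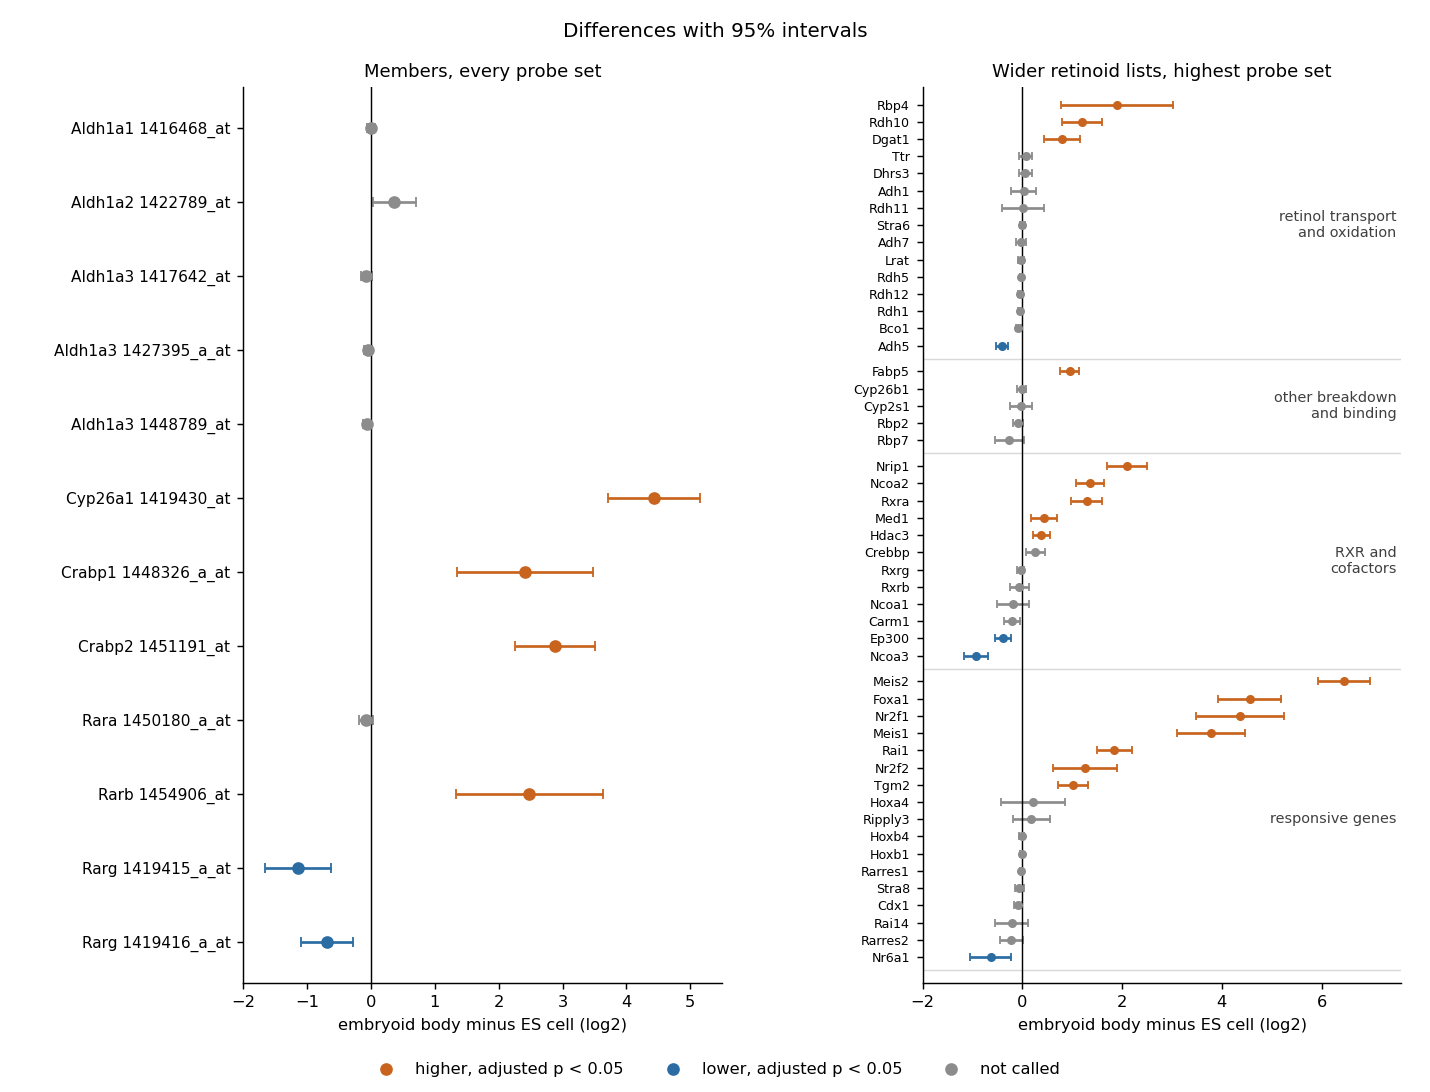
Embryoid body minus ESC difference in log2 value (horizontal axis) with its 95% interval for the 12 probe sets of the 9 genes (left) and for the highest probe set of 49 further pathway genes in 4 lists (right). Orange marks genes higher and blue genes lower in embryoid bodies at an adjusted P under 0.05, grey the rest, and Cyp26a1 on the left and Meis2 on the right lie farthest to the right.

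The responsive genes that rose did not all read alike on the sets of embryoid body arrays, a split first seen in these data. How many of all probe sets separate these arrays was not counted. Nr2f1 read 10.88 and 10.81 on arrays 7 and 9, against 9.09, 9.36 and 9.44 on arrays 1, 3 and 5. Nr2f2, Meis1 and Meis2 were likewise highest on arrays 7 and 9, as Crabp1, Crabp2 and Rarb were. Foxa1 had the opposite order, at 8.07 and 8.54 against 9.13 to 9.31, as Cyp26a1 did. Rai1, at 8.84 to 8.98, and Tgm2, at 7.34 to 7.67, did not separate the sets. Without embryoid body arrays 7 and 9 the rise in log2 was 3.74 for Nr2f1, 0.84 for Nr2f2, 3.34 for Meis1, 6.12 for Meis2 and 4.92 for Foxa1, and that of Rdh10 was 0.96. All 6 kept their calls by limma.

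Among all 31 genes with a repeat spaced by 5 bases in a promoter window, 11 had a probe set. In embryoid bodies 3 of these were called higher and 0 lower by limma, and the other 8, between -0.57 and 0.44, missed the threshold, with the smallest adjusted P at 0.0807. Among all genes 15.7% were called higher and 14.7% lower. The 3 were Cyp26a1, Rarb and Hbb-y, an embryonic globin gene, which rose by 8.26. With 11 genes and Hbb-y marking blood cells, the count is a description of these genes alone.

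**Figure D4:**
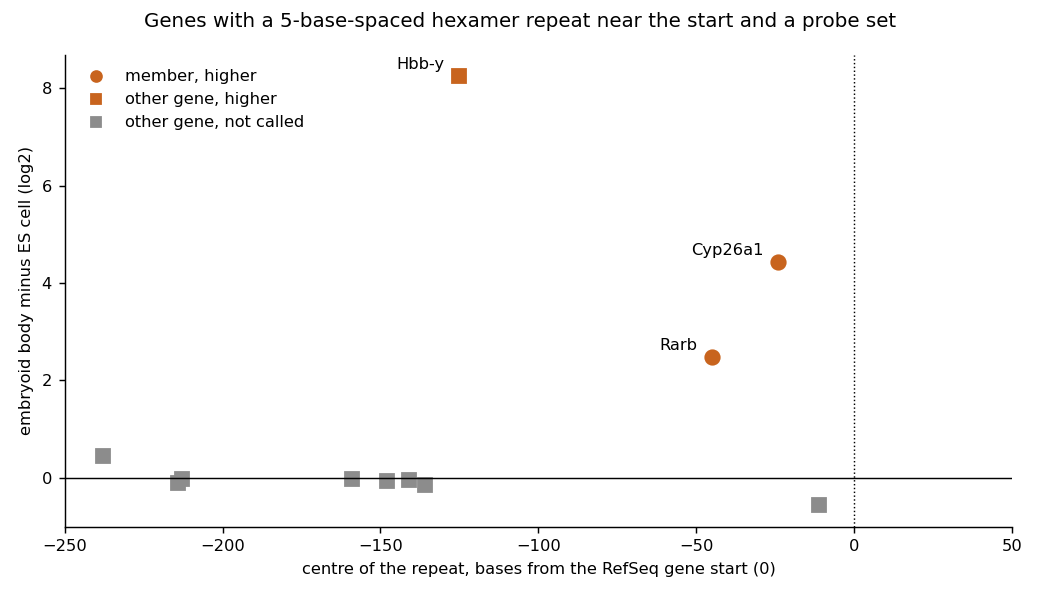
Embryoid body minus ESC difference in log2 value (vertical axis) against the centre of the repeat in bases from the RefSeq gene start (horizontal axis) for the 11 genes with a probe set and a repeat spaced by 5 bases. Cyp26a1 and Rarb (circles) and Hbb-y (square) are called higher, while the 8 genes in grey lie between -0.57 and 0.44.

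For each called gene, the 2 genes most like it over the 9 arrays were taken by Pearson correlation of log2 values, among the highest probe sets of genes with a mean of log2 4 or more (11981 compared). With 2 groups this correlation mostly reflects the step between them, and it is given without a test. Cyp26a1 was most like Tgfb1, a growth factor (r = 0.996), and Pbxip1 (0.995), with 646 genes above 0.95. Crabp2 was most like Evl, an actin regulator, and Pdlim5 (0.997 and 0.996, 861 genes above 0.95), and Crabp1 most like Enho and Tmem65 (0.988 and 0.985, 88 genes). Rarb followed a pattern that fewer genes shared. The nearest were Jak1, a cytokine receptor kinase (0.984), and Dennd1a (0.974), with 19 above 0.95. Rarg was nearest to Rangrf (0.971) and Ccdc124 (0.967), with 30 above 0.95.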

How the data were processed

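The authors hybridized RNA to Affymetrix mouse arrays and deposited GCRMA intensities on a linear scale, background-corrected and normalized between arrays. Whether all 9 arrays were normalized together is not stated. Here log2 was taken without an offset, and 64 control probe sets were left out. Embryoid bodies were compared with ESCs by limma 3.58.1 (R 4.3.3, lmFit and eBayes with trend and robust), two-sided, with Benjamini-Hochberg adjustment over 45037 probe sets and calls at an adjusted P under 0.05. The fit was tested on simulated data. Probe sets paired with 1 symbol (34945) named genes, and of several for a gene the one with the highest mean over the 9 arrays was used. The other 932 with several symbols and 9160 with none named no gene. Named were all 9 genes by every probe set, list genes called with a difference of at least 1 on the log2 scale, and the 2 genes most like each called gene. Hbb-y and other genes given by name were picked with their values in view. The members and gene lists were chosen with earlier results of these data known. Precision is limited by the number of arrays. Alternatives covered normalization, an offset of 16, moderation, weights, a filter at log2 4, probe set choice and each array left out.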

Additional observations from a re-analysis of the deposited data

Results flagged for a closer look

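In 48 sets of values of one probe set in one group, 5 had an array whose distance to its nearest neighbour took up most of the range of the group (Dixon's ratio above its 95% critical value). For independent, normally spread values chance gives about 1 in 20 such sets. Some sets here held equal or nearly equal values, where even a small shift is flagged, so that rate may not hold. Rara read 4.977 on ESC array 10, against 4.78 to 4.79 on the other 3. The second Aldh1a3 probe set read 3.838 on the same array, where the other 3 were equal at 3.78. Aldh1a1 read 2.449 on embryoid body array 1, against 2.32 to 2.35. The second Rarg probe set read 5.551 on embryoid body array 9, against 6.05 to 6.22. Foxa1 read 3.736 on ESC array 6, against 4.47 to 4.52. Of these only the Rarg and Foxa1 probe sets were called between the groups, and without the array in question both stayed lower or higher as before with a call.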

How the results depend on the processing

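Cyp26a1, Crabp1, Crabp2, Rarb and the first Rarg probe set kept direction and call under every alternative that could measure them, and 4 member probe sets were called higher in each fit but that with array weights, which added Aldh1a2. With arrays 7 to 10 against the others as a block, also chosen after seeing the data, no call of a member or named list gene was lost or gained. Across the differences of single probe sets or genes 475 values kept direction and side of the threshold, 11 lost a call, 2 gained one and 2 changed sign. Both sign changes were Aldh1a1, at -0.015 with array weights and from -0.0204 to 0.0113 with 1 array left out. With 1 array left out, 1 to 2 member probe sets were called lower, 3 to 9 genes of the wider lists (9 without embryoid body array 9) and 4088 to 12735 of all probe sets, the highest again without array 9, where 4893 were called higher. Member probe sets called lower were 1 without embryoid body arrays 7 and 9, 1 without ESC arrays 8 and 10, both chosen after seeing the data, and 1 with a difference of at least 1 required. That last rule left 1736 probe sets higher and 1104 lower, and 0 lower in the wider lists. Calls of lower probe sets numbered 7272 with median centring, 7076 with quantile normalization and 12834 with array weights, so that 40.5%, 39.8% and 29.3% of calls were higher ones, against 49.7%. Wider-list genes called lower were 9 with array weights and 7 with the mean over probe sets. Of the 9 genes, 2 were lower with quantile normalization (Rarg and Aldh1a3) and 0 with plain _at probe sets, which Rarg, Crabp1 and Rara lack, so that 3 genes were called higher there. Other causes were not tested. No paired analysis was run, because the titles do not say whether embryoid body and ESC arrays form pairs. Arrays were blocked by set only.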

Other observations

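Some of the lineage markers summed above are given here singly for the embryoid body arrays, picked with their values in view. Pou5f1, the pluripotency factor Oct4, read log2 8.53 and 8.17 on arrays 7 and 9, against 9.54, 9.71 and 9.36 on arrays 1, 3 and 5. Mixl1, a primitive streak gene, read 5.86 on both, against 7.14 to 7.53. The embryonic globin Hbb-bh1 read 10.26 and 10.42, against 12.33 to 12.50. Gata4, of heart and endoderm, went the other way, at 8.17 and 8.05 against 7.48 to 7.73. Tnnt2, a heart muscle troponin, was between 11.20 and 11.64 on all 5 arrays. Of the other ESC markers, Nanog, Zfp42, Tdgf1, Fgf4, Utf1 and Dppa5a were lower on arrays 7 and 9, as Pou5f1 was. Fgf4 was near the floor on all 5 arrays. Sox2, Klf4 and Esrrb did not separate the sets, and Klf4 was highest on array 7, at 7.34.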
